A study of Mus musculus with 5 samples.

Results

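The genes described here encode core splicing factors and heterogeneous nuclear ribonucleoproteins (hnRNPs). They were chosen as the probes of a mouse Illumina bead array whose annotated symbol begins with Srsf, Sfrs, Hnrnp, Hnrp, Sf3a, Sf3b, Snrp or Prpf, leaving out Snrpn, and that were detected above background (detection p under 0.05) on at least 2 of the 5 arrays. The prefixes took 106 probes of 57 genes, and 82 probes of 48 genes passed the detection rule, out of 12605 of 25697 probes and 8828 named genes in the whole data set. By class, the 48 genes were 8 Snrp genes, 8 SF3A and SF3B genes, 10 Prpf genes, 8 SR protein genes and 14 hnRNP genes.

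Introns are removed by the spliceosome, which is built afresh on each intron from small nuclear ribonucleoproteins (snRNPs), each an RNA in a ring of Sm proteins with further proteins of its own. U1 marks the start of the intron and U2 its branch point, U2 holding there through the SF3A and SF3B complexes, and the tri-snRNP of U4, U6 and U5 then joins and is rearranged into the catalytic form by factors that include the Prpf proteins. SR proteins mostly promote the use of the exons they bind, while many hnRNPs repress exons or loop them out, so the balance of both kinds helps set which exon is used.

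All samples were total RNA of 46C, a mouse embryonic stem cell line in which GFP reports the neural gene Sox1, with 1 array per sample. The ESC group (n = 2, labelled pluripotent) was grown without feeders or serum on gelatin, and its defined medium, N2B27, contained LIF, BMP and PD173074 (100 nM), which inhibits FGF receptors. The N2B27 48 hr group (n = 3, labelled competent to differentiation signals) came from cells of that line that were trypsinized, washed and replated in N2B27 without those additions for 48 hr, so withdrawal of all 3 agents, the replating and the time are changed together. Whether the replicates were separate cultures is not in the labels. The p-values here reflect only how these arrays vary, and that variation may be technical.

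The mean probe signal lay between 187.1 (N2B27 48 hr replicate 1, the dimmest array) and 263.7, and 42.1% to 47.5% of probes were detected on an array. The labelled states were checked with marker lists. The summed linear signal of 8 pluripotency genes was 35880 and 36350 in ESC and 11830 to 15220 in N2B27 48 hr, a sum to which Dppa5a, the brightest of the list's probes, gave the most in ESC, and in which Utf1 and Dppa4 rose (log2 changes 1.99 and 0.78). That of 4 postimplantation epiblast genes was 2283 and 2434 in ESC and 21090 to 21600 in N2B27 48 hr. Dnmt3b gave the most to that sum in N2B27 48 hr. All 4 rose, with log2 changes of 5.47 (Pou3f1), 5.16 (Fgf5), 3.73 (Dnmt3b) and 0.43 (Otx2). The neural genes Sox1, Pax6, Neurog2 and Tubb3 were not detected on any array, nor were Gata4, Gata6 and Sox17 of the primitive endoderm, Col1a1, Col1a2 and Col3a1 of fibroblasts, or Eomes and Elf5 of trophectoderm. Summed over whole lists, signal was low in ESC and higher in N2B27 48 hr for 7 fibroblast genes (58.91 and 65.46 against 618.4 to 909.4, with Acta2, Thy1 and Dcn detected on every N2B27 48 hr array) and for 5 trophectoderm genes (47.69 and 51.77 against 249.1 to 310.1, with Krt8 and Krt18 detected there). It was 98.62 and 104.9 against 112.8 to 199.7 for 6 neural genes and 35.14 and 37.38 against 54.57 to 78.35 for 5 primitive endoderm genes. Of the neural genes, Nes was detected on every array (log2 change -0.04) and Map2 rose by 1.26 (adjusted p = 0.00235 in limma). Of the primitive endoderm genes, Dab2 rose by 0.93 (adjusted p = 0.00358 in limma). Sox7 was detected on both ESC arrays and no N2B27 48 hr array, and its change of -0.20 did not pass. The part of these markers in the results below was not tested. In bulk RNA a change in the share of a cell type and a change in RNA per cell cannot be told apart.

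Most splicing genes that changed rose modestly after 48 hr in N2B27. Of the 48 genes, 25 rose, 3 fell and 20 did not pass the test, which makes 58.3% called where 45.2% of all genes tested were called (23.8% higher and 21.4% lower). The change of each gene is the difference in mean normalised log2 signal, N2B27 48 hr minus ESC, of its brightest tested probe, and a call is an adjusted p under 0.05 in limma's moderated test with Benjamini-Hochberg adjustment over all 12605 probes. The median log2 change was 0.30 over the splicing genes (range -0.38 to 1.07) and 0.05 over all genes. Rises made up 89.3% of the called splicing genes and 52.6% of all called genes. The changes were small: 1 splicing gene, Hnrnpll, rose at least 2-fold and 4 rose at least 1.5-fold, and none of the 3 that fell did so by 1.5-fold, where 12.7% of all genes were called at 2-fold or more, 13.3% rose by at least 1.5-fold and 13.9% fell by as much. The median size of a change regardless of direction, 0.31, was close to the 0.33 of all genes.

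The spread between arrays was narrower for the splicing genes. The median SD over arrays was 0.0424 in ESC and 0.110 in N2B27 48 hr, against 0.0787 and 0.143 for all genes, and 40 of the 48 genes had a standard error below the median of all genes. Their signal was also detected more fully, on all 5 arrays for 45 of the 48, against 6744 of all 8828 genes. Among all genes detected on every array 47.8% were called. In 31 genes every N2B27 48 hr array was above both ESC arrays and in 5 every one was below, where 65% of all genes did not overlap, 35.1% upward and 29.9% downward. The 8 that did not overlap and yet did not pass include Hnrnph3, Prpf3 and Sf3b5.

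**Figure D1:**
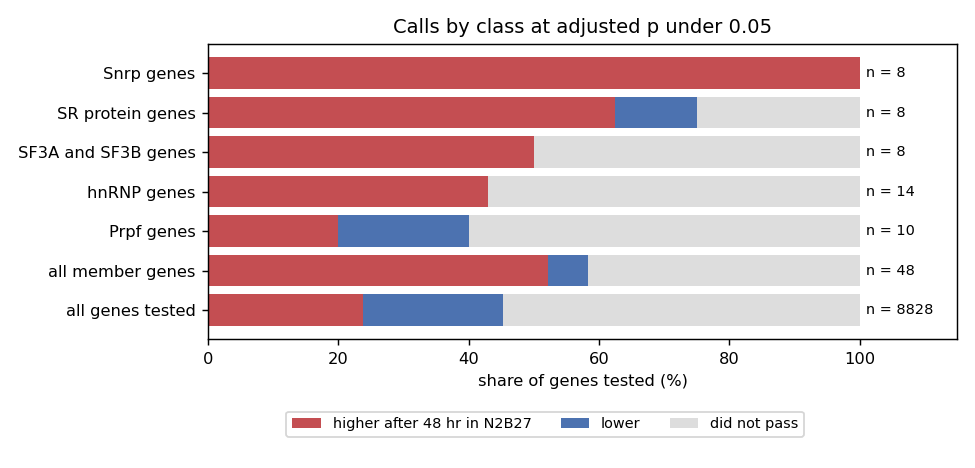
Share of tested genes (%, horizontal axis) that were higher, lower or did not pass at an adjusted p under 0.05, for each class of splicing gene and for all 8828 genes tested, with the number of genes beside each bar. All 8 Snrp genes were higher, while the Prpf class held 2 higher and 2 lower genes of 10.

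The rise was present on each array. Relative to the mean of the ESC arrays, the median of the 48 genes was 0.27, 0.28 and 0.30 on the 3 N2B27 48 hr arrays (log2), and the median of all genes was 0.04 on each. Among classes the Snrp genes had medians of 0.41, 0.38 and 0.45, the SR protein genes 0.29, 0.32 and 0.36, the SF3A and SF3B genes 0.24, 0.24 and 0.27, and the hnRNP genes 0.26, 0.24 and 0.25. The Prpf genes had 0.03, 0.17 and 0.18 and were the class whose median was near that of all genes on an array, N2B27 48 hr replicate 1.

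**Figure D2:**
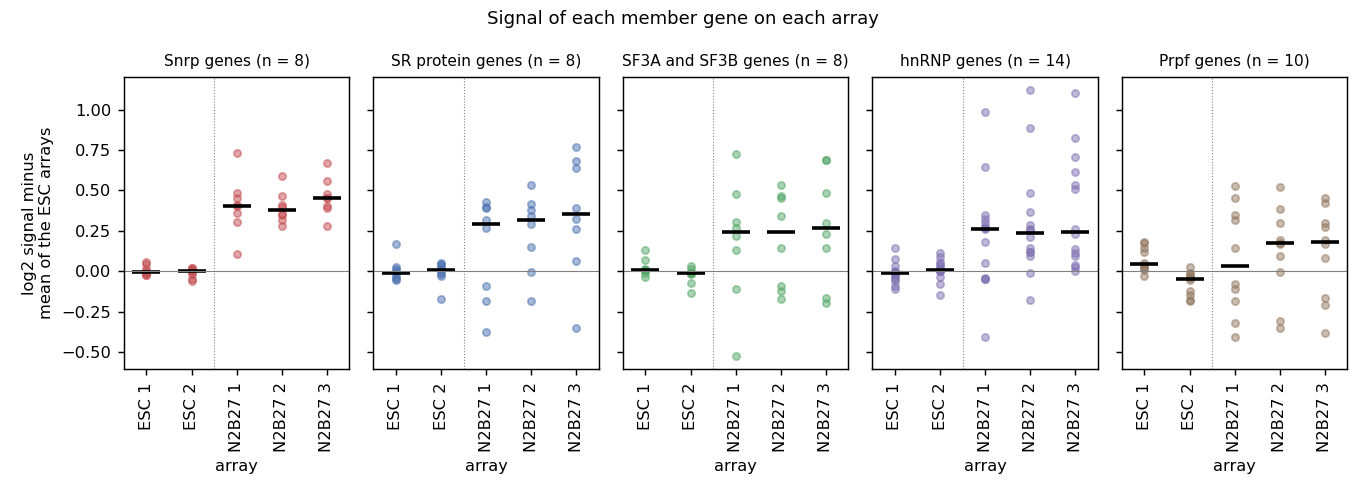
Log2 signal of each splicing gene on each of the 5 arrays minus its mean over both ESC arrays (vertical axis), with 1 panel per class. Points are genes and black lines the median of the class on that array. The Snrp genes lie above 0 on all N2B27 48 hr arrays, and the Prpf genes lie on both sides.

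How arrays were scaled decided how many of these genes were called. With arrays scaled to the median of all probes, in place of quantile normalization, 1 of the 48 genes was called (Hnrnpll, log2 change 0.83, adjusted p = 0.0149 in limma), or 2.08%, while 29% of all genes were called, and the median of all genes itself moved from 0.05 to -0.11. The splicing genes' median was then 0.10, which is 0.20 above that of all genes, against 0.25 as reported, and rises made up 29.7% of all called genes in place of 52.6%. Scaling to the median of probes detected on all arrays gave 25 higher and 3 lower, and cyclic loess 17 higher and 4 lower, which is 43.8% called against 45.1% of all genes under loess. Under loess the calls of Snrpd2, Snrpd3, Prpf31, Srsf2, Srsf4, Srsf10, Hnrnpab and Hnrnpl ended (adjusted p = 0.052 to 0.164 in limma). Without the variance trend those of Snrpd2, Snrpd3, Prpf38a, Srsf3, Srsf4, Hnrnpab and Hnrnpl ended (0.0616 to 0.113), which left 43.8% of the splicing genes called against 43.5% of all genes. The share called was therefore not above that of all genes under scaling to all probes and loess, and close to it without the trend. It was also close without N2B27 48 hr replicate 1 (47.9% against 45.8%). Without replicate 2 or 3 of that group it was higher (47.9% against 39.9% and 62.5% against 49.5%). With a gene's probes averaged the calls of Srsf2 (adjusted p = 0.0751 in limma) and Prpf38a (0.895) ended. Every count of called genes given for a class below becomes 0 under scaling to all probes, except that Hnrnpll keeps its call. In the other settings tried, leaving out a single ESC array aside, 17 of the 28 called genes passed in all 17.

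**Figure D3:**
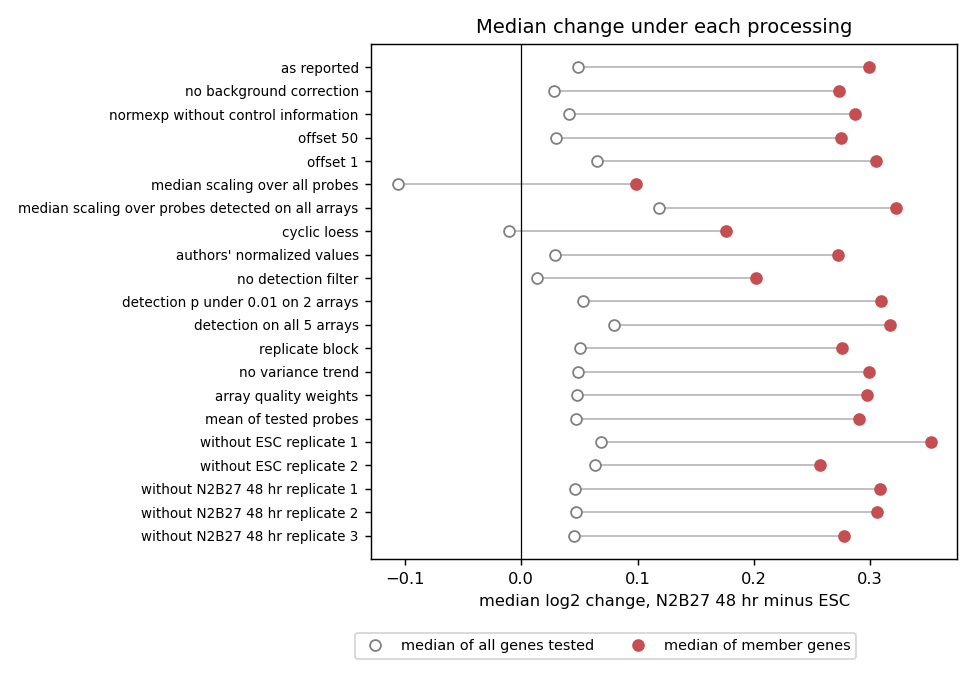
Median log2 change (horizontal axis) of all genes tested (open circles) and of the splicing genes (filled circles) under each processing, with a line joining the pair. The splicing genes' median is above that of all genes in each row, and both medians are lowest under scaling to the median of all probes.

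All 8 tested Snrp genes rose, where 23.8% of all genes were called higher. The rises were 0.29 to 0.60 on the log2 scale (median 0.44) and lay close together (SD 0.102 over the 8 genes). The class holds proteins of the Sm ring, which every spliceosomal snRNP but U6 carries, and proteins particular to U1 or U2. The largest rise was in Snrpa1, the U2-A′ protein, whose log2 signal was 9.27 and 9.24 in ESC and 9.99, 9.84 and 9.74 in N2B27 48 hr. The groups did not overlap, and the change was 0.60 ± 0.0989 (SE, n = 2 and 3), or 1.52-fold, with adjusted p = 0.000602 in limma. A second Snrpa1 probe changed by 0.25 (adjusted p = 0.169 in limma) and did not pass.

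The U1 proteins were both among the rises. Snrpa, the U1-A protein that binds a stem loop of U1 RNA, had 9.67 and 9.70 in ESC and 10.09, 10.00 and 10.14 in N2B27 48 hr. Snrpc, the U1-C protein that steadies the pairing of U1 with the start of the intron, had 7.06 and 7.10 in ESC and 7.57, 7.55 and 7.53 in N2B27 48 hr. Neither gene's groups overlapped. Snrpa rose by 0.39 ± 0.0868 (adjusted p = 0.00387 in limma), with a second probe at 0.47, and Snrpc by 0.47 ± 0.115 (adjusted p = 0.00688).

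Of the Sm ring, 5 genes were tested and all rose. Snrpd1 had 10.74 and 10.75 in ESC and 11.15, 11.14 and 11.30 in N2B27 48 hr, a rise of 0.46 ± 0.0827 (adjusted p = 0.00114 in limma), and its second probe rose by 0.62. Snrpg, another ring protein, had 11.11 and 11.10 in ESC and 11.46, 11.45 and 11.77 in N2B27 48 hr, and N2B27 48 hr replicate 3 was the highest array. It rose by 0.46 ± 0.101 (adjusted p = 0.00381 in limma). Snrpb, which encodes SmB, went from 10.60 and 10.63 to 11.07, 11.03 and 11.01, a rise of 0.42 ± 0.0765 (adjusted p = 0.00118) that a second probe gave as 0.53. All arrays of these 3 genes kept the groups apart.

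The smallest Snrp changes were those of the ring proteins SmD2 and SmD3. Snrpd2 had 12.10 and 12.00 in ESC and 12.35, 12.33 and 12.33 in N2B27 48 hr, a rise of 0.29 ± 0.0699 (adjusted p = 0.00655 in limma). Snrpd3 had 11.00 and 10.87 in ESC and 11.04, 11.29 and 11.34 in N2B27 48 hr, and N2B27 48 hr replicate 1 stood just above the higher ESC array. It rose by 0.29 ± 0.0993 (adjusted p = 0.0365 in limma), which was lost without ESC replicate 1, ESC replicate 2 or N2B27 48 hr replicate 2 (adjusted p = 0.0852, 0.252 and 0.116). Without either ESC array 5 of the 8 rises remained past the test, and Snrpc, Snrpa (replicate 1 left out) and Snrpd2 (replicate 2 left out) were the other calls lost. Snrpe, a further ring gene, and Snrpb2, the U2-B″ protein, had a probe but were detected on no array.

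**Figure D4:**
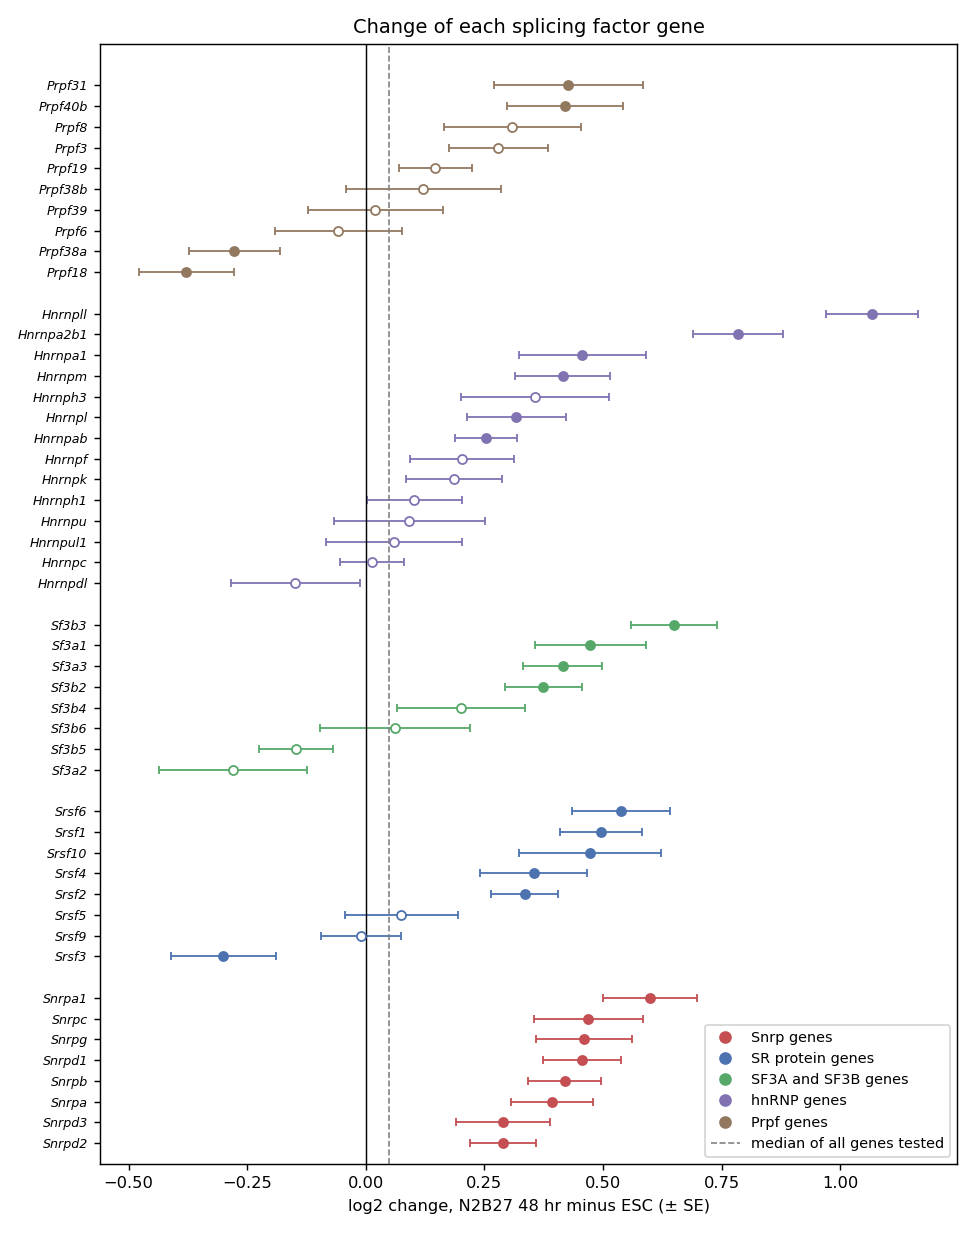
Log2 change of each of the 48 splicing genes (horizontal axis, N2B27 48 hr minus ESC, bars are SE), grouped and coloured by class. Filled points passed at an adjusted p under 0.05, open points did not, and the dashed line is the median of all genes tested. The Snrp genes lie between 0.29 and 0.60, and Hnrnpll at 1.07 is the farthest to the right.

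The SF3A and SF3B complexes hold the U2 snRNP on the branch point. Of their 8 tested genes 4 rose, 0 fell and 4 did not pass (4 and 0 at an unadjusted p under 0.05), with a median log2 change of 0.29. The class share called, 50%, was near the 45.2% of all genes. Sf3b1, which encodes the subunit that clamps the branch point helix, was detected on no array. Their promoters are shown because the letters CCGGAAG, the core bound by many ETS family factors, or their reverse complement CTTCCGG lay in the promoter windows of all 6 of these genes that the RefSeq promoter table holds (Sf3b4 and Sf3b5 had no entry). A window is the 300 bases from 250 before to 50 after the annotated start in GRCm38.p6. Only the first window listed for each gene was searched, here and below, and Sf3b2 had 2 listed. The runs below are on the strand of the gene, 5′ to 3′, each with up to 30 bases on either side of the match, which is in capitals.
Sf3a1 promoter, chr11:4160317-4160383, plus strand: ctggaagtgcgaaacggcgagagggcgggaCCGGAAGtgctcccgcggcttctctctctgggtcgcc
Sf3a2 promoter, chr10:80798629-80798695, plus strand: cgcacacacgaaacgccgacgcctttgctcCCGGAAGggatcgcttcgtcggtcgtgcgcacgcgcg
Sf3a3 promoter, chr4:124714741-124714807, plus strand: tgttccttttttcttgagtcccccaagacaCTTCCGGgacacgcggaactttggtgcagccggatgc
Sf3b2 promoter, chr19:5295432-5295498, minus strand: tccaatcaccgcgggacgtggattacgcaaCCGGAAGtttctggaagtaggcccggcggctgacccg
Sf3b3 promoter, chr8:110846996-110847053, minus strand: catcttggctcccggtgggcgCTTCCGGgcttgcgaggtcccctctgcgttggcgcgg
Sf3b6 promoter, chr12:4817493-4817574, plus strand: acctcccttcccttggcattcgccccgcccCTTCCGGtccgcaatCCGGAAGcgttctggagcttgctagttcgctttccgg

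The match nearest to the start ended 1 base before it in Sf3a1 and 5 bases before it in Sf3b2. It lay 70 bases before the start in Sf3a2, 84 in Sf3a3 and 223 in Sf3b3, and Sf3b6 held 2 matches, 64 and 79 bases before it, in opposite orientations. With Sf3b1, which held no match, 6 of 7 windows had the letters. Across the 27025 windows taken from RefSeq's table, 1 per gene, 9.12% (2465) held them on either strand. Across those of genes tested here 18.4% did. A match is a description of letters, and these data do not measure binding there. Of the 6 genes with a match 4 rose, and Sf3a2 and Sf3b6 did not pass. Whether the matches bear on these changes was not tested.

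Within SF3B the largest rise was in Sf3b3, a beta-propeller subunit, with 10.40 and 10.26 in ESC and 11.05, 10.86 and 11.02 in N2B27 48 hr. Its groups were well apart, and it rose by 0.65 ± 0.0905 (1.57-fold, adjusted p = 0.000184 in limma). Sf3b2, which contacts RNA near the branch point, had 11.08 and 11.11 in ESC and 11.58, 11.44 and 11.40 in N2B27 48 hr, a rise of 0.37 ± 0.0815 (adjusted p = 0.00356). In SF3A, Sf3a1 had 9.74 and 9.73 in ESC and 10.00, 10.20 and 10.42 in N2B27 48 hr and rose by 0.47 ± 0.117 (adjusted p = 0.00721 in limma). Sf3a3 had 10.73 and 10.72 in ESC and 11.03, 11.17 and 11.21 in N2B27 48 hr and rose by 0.41 ± 0.0836 (adjusted p = 0.00222). Each of these 4 genes was higher on every N2B27 48 hr array than on either ESC array. The call of Sf3a1 was lost without either ESC array (adjusted p = 0.0542 and 0.0596 in limma).

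Not all subunits moved this way. Sf3b5, a small subunit, had 10.80 and 10.86 in ESC and 10.72, 10.66 and 10.66 in N2B27 48 hr, with a log2 change of -0.15 (95% interval -0.32 to 0.03, adjusted p = 0.157 in limma). Its groups did not overlap, and under cyclic loess it passed as lower (-0.23, adjusted p = 0.0374). Sf3a2 had 4.96 and 4.94 in ESC and 4.43, 4.83 and 4.75 in N2B27 48 hr, near the floor of the scale and detected on 2 of the 3 N2B27 48 hr arrays, with a change of -0.28 (interval -0.63 to 0.06). Sf3b6, the subunit that reaches the branch point adenosine, changed by 0.06 (interval -0.29 to 0.41) and Sf3b4 by 0.20 (interval -0.10 to 0.50), and neither passed.

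The Prpf genes, named for yeast pre-mRNA processing factors, were called in both directions. Rises numbered 2 of 10, falls 2, and 6 did not pass, and the median log2 change was 0.13. The class share called was 40%, below the 45.2% of all genes. Prpf18, which acts in the second step of splicing, had 8.63 and 8.61 in ESC and 8.22, 8.27 and 8.24 in N2B27 48 hr. Both groups were tight, and it fell by 0.38 on the log2 scale (SE 0.0992, 1.30-fold, adjusted p = 0.0102 in limma). Without ESC replicate 1 or 2 the adjusted p was 0.106 and 0.0952. Prpf38a, needed to activate the assembled spliceosome, had 9.06 and 9.11 in ESC and 8.77, 8.78 and 8.88 in N2B27 48 hr for its brightest probe, which fell by 0.28 (SE 0.0958, adjusted p = 0.0372). That call was lost on leaving out either ESC array or N2B27 48 hr replicate 1 or 2 (adjusted p = 0.0697 to 0.238). Its 3 further probes changed by 0.22, 0.06 and -0.13 and none passed.

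The rises were in Prpf31 and Prpf40b. Prpf31, which binds the U4 RNA in the tri-snRNP, had 5.14 and 4.85 in ESC and 5.52, 5.30 and 5.45 in N2B27 48 hr, a rise of 0.43 ± 0.156 (adjusted p = 0.0472 in limma). That call ended in 14 of the 20 other settings tried. Among those with all arrays kept, the adjusted p in limma was 0.0517 (offset 1) to 0.345 (scaling to all probes). Those settings include no background correction, normexp without control information, the authors' normalized values, no detection filter, the replicate block and cyclic loess. It also ended without any 1 N2B27 48 hr array (0.0528 to 0.084). Without ESC replicate 1 or 2 the change was 0.55 and 0.28. Prpf40b, related to a U1 protein of yeast, had 6.75 and 6.71 in ESC and 7.18, 7.12 and 7.15 in N2B27 48 hr, groups far apart for their spread. It rose by 0.42 ± 0.122 (adjusted p = 0.017), and without ESC replicate 1 or 2 the adjusted p was 0.102 and 0.132.

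The other 6 Prpf genes did not pass on their brightest probes, although further probes of Prpf8, Prpf3 and Prpf19 did. Prpf8, the large protein at the heart of the U5 snRNP, had 8.92 and 8.57 in ESC and 9.06, 9.27 and 8.83 in N2B27 48 hr, groups that overlapped, with a change of 0.31 (interval -0.01 to 0.63). Its second probe rose by 0.43 (adjusted p = 0.0278 in limma). Prpf3, a U4 and U6 protein, had 9.37 and 9.12 in ESC and 9.59, 9.44 and 9.54 in N2B27 48 hr, with a change of 0.28 (interval 0.05 to 0.51, adjusted p = 0.0515), and 1 of its 3 further probes passed (0.24, adjusted p = 0.0471). Prpf19, the ubiquitin ligase that names the Prp19 complex, was the brightest probe of the class and changed by 0.15 (interval -0.03 to 0.32), while 1 of its further probes rose by 0.45 (adjusted p = 0.00515) and the other changed by 0.15. Nearest to 0 were Prpf39 at 0.02 (interval -0.29 to 0.33) and Prpf6, a bridge within the tri-snRNP, at -0.06 (interval -0.35 to 0.24), and Prpf38b changed by 0.12. Prpf4b, a kinase, was detected on no array.

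Among the SR protein genes 5 rose, 1 fell and 2 did not pass, 75% called against 45.2% of all genes. The median log2 change was 0.34. Srsf6 had 9.31 and 9.38 in ESC and 9.74, 9.88 and 10.03 in N2B27 48 hr and rose by 0.54 ± 0.103 (1.45-fold, adjusted p = 0.00161 in limma). Srsf1, the SR protein first described as ASF/SF2, had 11.51 and 11.55 in ESC and 11.96, 11.94 and 12.17 in N2B27 48 hr, and rose by 0.50 ± 0.0855 (adjusted p = 0.000809). A second Srsf1 probe rose by 0.67. For both genes all N2B27 48 hr arrays were above ESC by more than the range within either group.

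Srsf10, which represses splicing when it loses its phosphates, had 7.62 and 7.73 in ESC and 7.94, 8.05 and 8.44 in N2B27 48 hr, with N2B27 48 hr replicate 3 the highest array. It rose by 0.47 ± 0.150 (adjusted p = 0.0256 in limma), its further probes gave 0.68 (passed) and 0.31 (adjusted p = 0.0616), and leaving out ESC replicate 1 or 2 ended the call (adjusted p = 0.169 and 0.0941). Srsf4 had 9.10 and 8.76 in ESC and 9.33, 9.28 and 9.25 in N2B27 48 hr, and the ESC arrays differed by more than the N2B27 48 hr arrays did. Its rise of 0.35 ± 0.113 (adjusted p = 0.0263 in limma) did not hold on leaving out ESC replicate 2 (adjusted p = 0.365) or N2B27 48 hr replicate 1 or 2 (0.0581 and 0.0687). Srsf2, known as SC35 and the brightest SR probe, had 12.14 and 12.08 in ESC and 12.43, 12.41 and 12.50 in N2B27 48 hr. It rose by 0.34 ± 0.0707 (adjusted p = 0.00294), with 2 further probes at 0.25 and 0.26 that did not pass.

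Srsf3, the smallest of the classical SR proteins, went the other way. Its brightest probe had 8.28 and 8.28 in ESC and 7.91, 8.10 and 7.93 in N2B27 48 hr, and fell by 0.30 (SE 0.111, adjusted p = 0.0482 in limma). A second probe had 8.14 and 8.04 in ESC and 7.53, 7.86 and 7.82 in N2B27 48 hr and fell by 0.35 (SE 0.129, adjusted p = 0.0484). On both probes the groups were apart, but the call of the brightest was lost without any 1 array other than N2B27 48 hr replicate 2 (adjusted p = 0.0507 to 0.23). Srsf9 changed by -0.01 (interval -0.20 to 0.18) and Srsf5 by 0.07 (interval -0.19 to 0.34), and the arrays of both groups overlapped in each. Srsf12 was detected on no array.

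Of the 14 tested hnRNP genes 6 rose, 0 fell and 8 did not pass (7 and 0 at an unadjusted p under 0.05), and the median log2 change was 0.23. The class share called, 42.9%, was below the 45.2% of all genes. The largest change of all 48 genes was in Hnrnpll, a relative of hnRNP L known in T cells for repressing exons of the Ptprc (CD45) gene. Its brightest probe had 8.35 and 8.27 in ESC and 9.29, 9.43 and 9.41 in N2B27 48 hr, and a second probe had 6.52 and 6.31 in ESC and 6.89, 7.28 and 7.32 in N2B27 48 hr. On neither probe did the groups overlap. The brightest rose by 1.07 ± 0.0974 (2.10-fold, adjusted p = 8.02e-06 in limma) and the other by 0.75 ± 0.162 (adjusted p = 0.00341), and Hnrnpll was the 1 gene of the 48 called under every setting tried.

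The A and B type hnRNPs, which bind exon silencers, followed. Hnrnpa2b1 had 10.05 and 10.17 in ESC and 10.76, 11.00 and 10.93 in N2B27 48 hr and rose by 0.78 ± 0.0946 (1.72-fold, adjusted p = 6.57e-05 in limma). Its dimmer probe rose by 0.55 ± 0.153 (adjusted p = 0.0139). Hnrnpa1 had 9.65 and 9.74 in ESC and 9.88, 10.18 and 10.40 in N2B27 48 hr, a wide spread in the second group, and rose by 0.46 ± 0.134 (adjusted p = 0.018). A second Hnrnpa1 probe changed by 0.16 and did not pass, and the call was lost without ESC replicate 1, ESC replicate 2 or N2B27 48 hr replicate 2 (adjusted p = 0.131, 0.0677 and 0.0636). Hnrnpab had 12.69 and 12.76 in ESC and 13.00, 12.98 and 12.96 in N2B27 48 hr, close within both groups. Its rise was 0.25 ± 0.0657 (adjusted p = 0.00967 in limma), and leaving out ESC replicate 1 raised the adjusted p to 0.0798.

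The other rises were in Hnrnpm and Hnrnpl. Hnrnpm, which binds stretches rich in G and U, had 11.53 and 11.54 in ESC and 11.79, 11.90 and 12.15 in N2B27 48 hr, and its 3 probes rose by 0.41, 0.38 and 0.25. Hnrnpl, which binds CA repeats, had 11.37 and 11.38 in ESC and 11.70, 11.49 and 11.88 in N2B27 48 hr and rose by 0.32 ± 0.105 (adjusted p = 0.0307 in limma). That call was lost without either ESC array (adjusted p = 0.135 for both) or without N2B27 48 hr replicate 1 (0.0592).

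The other 8 hnRNP genes gave no call on their brightest probes. Hnrnpc, which packages nascent transcripts through U tracts and was the brightest of the class, had 13.55 and 13.55 in ESC and 13.51, 13.55 and 13.65 in N2B27 48 hr, with a change of 0.01 (interval -0.14 to 0.16). A dimmer Hnrnpc probe passed at 0.24 (adjusted p = 0.0442 in limma). Hnrnpk, which binds C tracts, changed by 0.19 (interval -0.04 to 0.41), and Hnrnpul1 by 0.06 (interval -0.26 to 0.38). Hnrnph1 and Hnrnpf, which bind runs of G, changed by 0.10 (interval -0.12 to 0.32) and 0.20 (interval -0.04 to 0.45) on their brightest probes. Of the 4 further Hnrnph1 probes 1 passed (0.33, adjusted p = 0.0257 in limma). The others changed by 0.47 (adjusted p = 0.0542), 0.46 (0.0614) and 0.09 and did not pass. Hnrnph3 had a change of 0.36 (interval 0.01 to 0.70, adjusted p = 0.0873).

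Hnrnpdl had 9.94 and 9.97 in ESC and 9.55, 9.78 and 10.09 in N2B27 48 hr. The N2B27 48 hr arrays lay on both sides of ESC, the change was -0.15 (interval -0.45 to 0.15), and a second probe gave 0.17. The probe passed as lower without N2B27 48 hr replicate 3, its highest array (-0.29, adjusted p = 0.0226 in limma). Hnrnpu, a scaffold attachment protein, was detected on 1 ESC and 2 N2B27 48 hr arrays and changed by 0.09 (interval -0.26 to 0.44). Hnrnpa3, Hnrnpd, Hnrnph2 and Hnrnpr were detected on no array.

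Different probes of a gene can read different transcripts, and 23 of the 48 genes had at least 2 tested probes. In 13 of them all probes gave the same call (in 5 of these none passed), in 10 some passed and some did not, and in 0 did probes pass in opposite directions. Counted by probe, 39 of the 82 rose and 4 fell, 52.4% called against 43.1% of all probes. The difference in change between a gene's brightest probe and each further probe was also tested in limma, here without a variance trend. Adjustment was over 3018 such pairs in all genes. None of the 34 pairs in splicing genes passed (2 at an unadjusted p under 0.05), where 7.85% of all pairs did. The widest gap was in Prpf38a, where a further probe changed by 0.50 ± 0.157 more than the brightest (adjusted p = 0.0958). Next at an unadjusted p under 0.05 was Snrpa1, whose second probe changed less by a log2 difference of -0.35 ± 0.155 (adjusted p = 0.255).

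**Figure D5:**
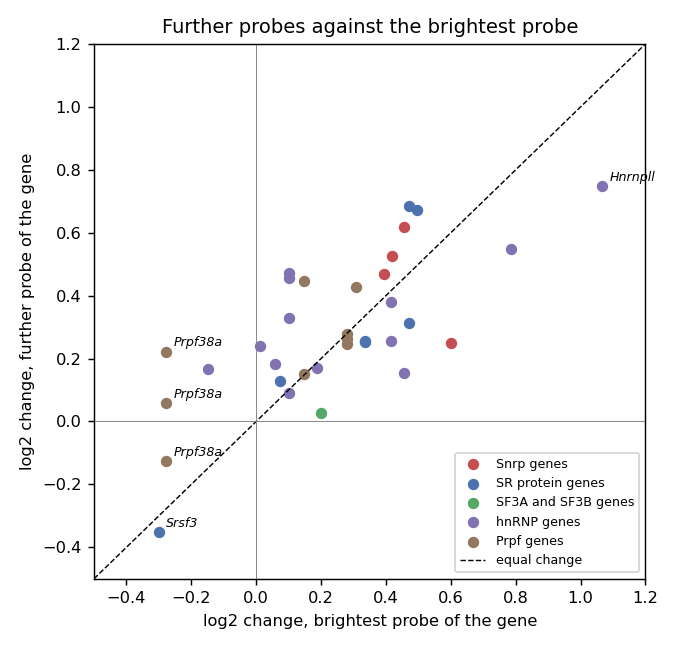
Log2 change of each further tested probe (vertical axis) against that of the gene's brightest probe (horizontal axis), for 34 pairs in 23 splicing genes, coloured by class. The dashed line marks equal change. No point joins a called rise with a called fall, and the Prpf38a probes spread most.

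Proteins that build, partner or regulate these factors were counted from 8 further lists, 145 tested genes in all. Of these 55 rose, 14 fell and 76 did not pass, 47.6% called, and the median log2 change was 0.21. With arrays scaled to the median of all probes 11 of the 145 rose and 11 fell, where 29% of all genes were called, and of the genes named below Gemin5, Wrap53, Zcrb1, Zmat5, Cdc5l, Zcchc8, Dhx16, Aqr, Isy1, Srpk1, Thoc6, Ncbp2, Gemin7, Rbm47, Rbm38, Esrp1, Rbmx and Rbfox1 were still called. The lists were chosen with earlier results of these data known, and the counts as reported are read beside the 45.2% of all genes.

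Assembly of Sm rings on snRNAs needs the SMN complex and the factors that hand it Sm proteins, and 11 of 22 tested genes of that list rose and 2 fell (59.1% called, median 0.29). Gemin4, an SMN complex subunit, had 9.30 and 9.26 in ESC and 10.24, 10.17 and 10.01 in N2B27 48 hr and rose by 0.86 ± 0.0958 (1.82-fold, adjusted p = 3.52e-05 in limma). Gemin5, which recognises snRNAs, rose by 0.83 ± 0.141 (adjusted p = 0.000714). Clns1a, the chaperone pICln that holds Sm proteins before assembly, had 9.88 and 10.01 in ESC and 10.79, 10.72 and 10.56 in N2B27 48 hr and rose by 0.75 ± 0.0945. The 2 that fell were Wrap53, which brings small RNAs to Cajal bodies, and Gemin7. Of 2 Gemin7 probes 1 passed as lower, and the other changed by -0.29 (adjusted p = 0.176 in limma). Wrap53 had 6.86 and 6.96 in ESC and 6.17, 5.90 and 6.00 in N2B27 48 hr and fell by 0.89 (SE 0.144, adjusted p = 0.000545 in limma). Gemin7 fell by 0.54 (SE 0.127), and leaving out ESC replicate 1 ended its call (adjusted p = 0.0628).

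The LSm proteins include those that form the ring of U6, related to the Sm ring. Of the 11 tested genes of the LSm list, which is wider than that ring, 5 rose and 0 fell (7 and 0 at an unadjusted p under 0.05, 45.5% called, median 0.33). Lsm6 had 9.08 and 9.15 in ESC and 9.86, 9.91 and 10.13 in N2B27 48 hr and rose by 0.85 ± 0.102 (1.80-fold, adjusted p = 6.68e-05 in limma). Lsm7 rose by 0.74 ± 0.0868 and Lsm8, the subunit particular to the nuclear ring, by 0.68 ± 0.126.

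Other U1, U2 and U5 proteins, with those of the minor spliceosome, gave 8 rises and 1 fall among 20 tested (45% called, median 0.21). The largest rise and the fall were both in proteins of the U11 and U12 snRNP, which serves the rare minor introns. Zcrb1 had 7.61 and 7.57 in ESC and 9.24, 9.28 and 9.56 in N2B27 48 hr, and rose by 1.77 ± 0.117 (3.40-fold, adjusted p = 7.01e-07 in limma). Zmat5 had 8.36 and 8.42 in ESC and 7.21, 6.91 and 6.77 in N2B27 48 hr, and fell by 1.42 on the log2 scale (SE 0.143, 2.68-fold, adjusted p = 1.68e-05). In both genes the groups were apart by more than 1 log2 unit, and the calls held under each setting tried. Luc7l, related to a U1 protein of yeast, rose by 0.78 ± 0.115, and Eftud2, the U5 GTPase, by 0.62 ± 0.101. A second Luc7l probe changed by 0.22 (adjusted p = 0.441 in limma) and did not pass.

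The list for the catalytic step and the Prp19 complex had 8 rises and 4 falls among 22 tested genes (54.5% called, median 0.10), with both a fall and rises of more than 1 log2 unit. Cdc5l, a core subunit of the Prp19 complex, had 11.32 and 11.24 in ESC and 9.89, 9.87 and 9.96 in N2B27 48 hr, and fell by 1.38 on the log2 scale (SE 0.0817, 2.60-fold, adjusted p = 2.92e-07 in limma). Of its 4 probes 3 fell and 1 did not pass. Zcchc8, with a change of -0.86, and the helicase Dhx16, with -0.87, also fell, and leaving out ESC replicate 1 ended the call of Dhx16 (adjusted p = 0.0589 in limma). In the same list Aqr, an RNA helicase of the intron binding complex, had 7.25 and 6.95 in ESC and 8.42, 8.77 and 8.63 in N2B27 48 hr and rose by 1.51 ± 0.139 (2.85-fold, adjusted p = 8.67e-06), with both of its probes higher. Isy1 rose by 1.04 ± 0.0981 and Bud31 by 0.57 ± 0.122, and leaving out ESC replicate 1 ended the call of Bud31 (adjusted p = 0.0546).

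Among partners and kinases of SR proteins 6 of 16 tested rose and 1 fell (43.8% called, median 0.14). Srpk1, a kinase that phosphorylates SR proteins in the cytoplasm, had 8.87 and 8.95 in ESC and 9.88, 9.85 and 9.89 in N2B27 48 hr and rose by 0.96 ± 0.0883 (1.95-fold, adjusted p = 8.4e-06 in limma). Its relative Srpk2 rose by 0.57 ± 0.131, a call lost without ESC replicate 2 (adjusted p = 0.0687), and Clk4, a kinase that acts on SR proteins in the nucleus, by 0.52 ± 0.109 with 2 of 3 probes higher. Tra2a, an SR-like activator of exons, had 11.26 and 11.41 in ESC and 11.07, 11.06 and 10.98 in N2B27 48 hr, and fell by 0.29 (SE 0.0817, adjusted p = 0.0138 in limma, 0.197 without ESC replicate 2).

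The list for the branch point and the end of the intron had 1 rise and 0 falls among 11 tested genes (2 and 0 at an unadjusted p under 0.05; 9.09% called, median 0.10). The rise was in Ddx39b, a helicase that helps U2 join, by 0.25 ± 0.0717 (adjusted p = 0.0149 in limma), and the call ended on leaving out ESC replicate 1 or 2 (adjusted p = 0.0652 and 0.121) and under cyclic loess (0.197). Of the 3 Ddx39b probes 2 passed as higher, and 1 changed by 0.09 and did not pass. Exon junction and mRNA export genes were called in both directions, 4 higher and 3 lower of 12 (58.3%, median 0.18). The cap binding subunits were called in opposite directions: Ncbp1 rose by 0.77 ± 0.116 and Ncbp2 fell by 0.48 (SE 0.144), with a second Ncbp2 probe at 0.06 and the call lost without either ESC array or N2B27 48 hr replicate 2 (adjusted p = 0.0681 to 0.187 in limma). In the THO complex, which couples transcription to export, Thoc1 rose by 0.75 ± 0.114 and Thoc6 fell by 0.86 (SE 0.0971). Nxt1, an export factor, rose by 0.49 ± 0.103. Casc3, a protein of the exon junction complex, fell by 0.34 (SE 0.107), and its adjusted p was 0.0665 to 0.22 on leaving out either ESC array or N2B27 48 hr replicate 1 or 2.

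Of 33 tested regulators of alternative splicing outside these families 13 rose and 3 fell (48.5% called, median 0.17). Beside Esrp1, an epithelial splicing factor whose log2 signal went from 5.78 and 5.41 to 10.89, 10.97 and 11.09, the largest rises were in Rbmx and Rbfox1. Rbmx, also called hnRNP G, had 4.86 and 4.88 in ESC and 5.57, 6.01 and 6.94 in N2B27 48 hr, a rise of 1.31 ± 0.309 (adjusted p = 0.00579 in limma) with N2B27 48 hr replicate 3 highest. Rbfox1, a factor of neurons and muscle, was not detected in ESC and was at least 2.07-fold higher in N2B27 48 hr (adjusted p = 0.000466), a bound set by the dimmest detected signal of each ESC array. Rbm47 fell by 1.06 (SE 0.118, 2.09-fold), Rbm38 by 0.81 (SE 0.105) with all 3 of its probes lower, and Mbnl2, a muscleblind protein, by 0.43 (SE 0.129), a call lost without either ESC array (adjusted p = 0.0628 and 0.207 in limma).

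Promoter windows were in the RefSeq table for 42 of the 48 splicing genes. The letters CCGGAAG, on either strand, were in 13 of them (31.0%), against 18.4% of the windows of genes tested. By class they were in 2 of 8 SR protein genes, 1 of 13 hnRNP genes, 2 of 6 Snrp genes and 2 of 9 Prpf genes, beside the 6 of 6 SF3A and SF3B genes printed above. CCAAT was in 52.4% of the splicing genes' windows and 39.8% of those of genes tested, GGGCGG in 64.3% and 64.7%, the E-box CACGTG in 11.9% and 10.1%, and TATAAA in 14.3% and 7.41%. The palindrome bound by NRF1 was in none of the 42 windows and in 1.99% of those of genes tested. All motifs were searched on both strands, and windows holding several motifs count for each. The GC content of the windows had a median of 59% in the splicing genes and 60.7% in genes tested.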

How the data were processed

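Total RNA of 5 samples was amplified into biotinylated cRNA and hybridised to Illumina bead arrays, per the labels' protocols. Per the file headers, the authors deposited a linear signal intensity for each probe on each array, before normalization, and beside it a detection p-value. The software was BeadStudio (version unstated), per the submitters' processing notes. The authors also deposited normalized linear intensity values for these arrays. They ranked probes within each array as the first table did and had column medians of 65.2 to 65.3, with the method of normalization unstated.

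From the intensities, background was corrected by normexp in limma 3.58.1 (R 4.3.3) with control mean and SD inferred from the detection p-values. After an offset of 16, log2 values were quantile normalized between arrays. A log2 change is therefore of the corrected signal plus 16 and understates changes of dim probes, and levels are comparable between arrays for 1 probe but not between probes. Probes detected at p under 0.05 on at least 2 arrays entered lmFit and eBayes with a variance trend, two-sided, with Benjamini-Hochberg adjustment over 12605 probes. Errors after ± are SEs of log2 changes, intervals are 95%, and precision is limited by the number of arrays. The steps were tested on simulated data. Where a probe was undetected in a group, a lower bound was set from the lowest detected signal of each array. Marker lists were summed over the brightest probe of each gene.

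Names came from the platform annotation (23978 probes named, 1719 not), updated through Entrez identifiers to a RefSeq table of GRCm38.p6. Promoter sequences are RefSeq's for that build, and protein sequences were not used here. Figures were drawn with matplotlib 3.10.9. The splicing genes and all lists were chosen with earlier results of these data known. By rule, genes named were, per class, up to 4 largest called changes each way, the brightest gene, the 2 uncalled changes nearest to 0 and genes whose probes differed in call, and up to 3 called changes each way per further list. Other members were named after their values were seen, so that each is accounted for. Alternatives were other background corrections, offsets, normalizations, detection filters, variance models and probe summaries, the authors' normalized values, the replicate number as a block, and leaving out each array.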

Additional observations from a re-analysis of the deposited data

How the results depend on the processing

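No called splicing gene changed direction in any of the 20 alternatives. Scaling to the median of all probes left 1 gene higher (in the hnRNP class) and 0 lower, with 0 higher in the SR, SF3, Snrp and Prpf classes, 0 lower in the SR and Prpf classes, a median change of 0.0985 and 11 rises in the further lists. Cyclic loess gave a median of 0.176, with 2 SR protein genes and 1 Prpf gene higher and 1 SF3 gene lower. Without the detection filter 1 splicing gene was lower, with 0 SR protein genes lower, 1 Prpf gene higher and 1 lower. Without the variance trend 1 splicing gene was lower, a Prpf gene, and 0 SR protein genes. The count of higher Prpf genes was 1 with no background correction, normexp without control information, offset 1 or the authors' normalized values, and 4 with array quality weights or the mean of tested probes, the latter with 1 Prpf gene lower.

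Leaving out 1 array at a time gave 15 to 27 splicing genes higher and 0 to 3 lower, both counts lowest without an ESC array, and a median of 0.257 to 0.352. The ranges were 3 to 5 higher and 0 to 1 lower in the SR class, 3 to 7 and 0 to 1 among hnRNPs, 3 to 4 and 0 in SF3, 5 to 8 and 0 for Snrp, 0 to 3 and 0 to 2 for Prpf, and 38 to 61 and 8 to 16 in the further lists. Leaving out an ESC array assumes that the other varies like the N2B27 48 hr arrays. Calls there were therefore not compared with those of all genes. The splicing genes' median was then 0.28 (ESC replicate 1 left out) and 0.19 (ESC replicate 2 left out) above that of all genes. Without N2B27 48 hr replicate 1, 2 or 3, 47.9%, 47.9% and 62.5% of splicing genes were called. The shares of all genes called were 45.8%, 39.9% and 49.5%. Arrays with the same replicate number share only that number: their deviations from the group means correlated at -0.085 and -0.0275. With the replicate block 66.7% of splicing genes and 49.3% of all genes were called. There 1 hnRNP gene, Hnrnpdl, was lower (-0.29, adjusted p = 0.00719 in limma). N2B27 48 hr replicate 3 has no ESC array of its number, so under the block it does not enter the change. The block is therefore close to leaving that array out, where the Hnrnpdl change was also -0.29. Probes near background, such as those of Hnrnpu, Sf3a2, Prpf39 and Prpf31, have compressed changes on this scale.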
